A study of Mus musculus with 16 samples.

Results

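Fast inhibition in the spinal cord rests on 8 genes that make, load and clear GABA and glycine and set the chloride gradient that both transmitters use. They were chosen by symbol, Gad1, Gad2, Slc32a1, Slc6a5, Slc6a9, Slc6a11, Slc12a2 and Slc12a5, from 24411 gene symbols and the rule used no measured value, although the genes were proposed with earlier results of these data known. All 8 passed the filter on low values, among 16091 genes tested.

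Inhibitory interneurons synthesise GABA from glutamate with the decarboxylases GAD67 (Gad1) and GAD65 (Gad2), and the vesicular transporter VGAT (Slc32a1) loads GABA and glycine into synaptic vesicles. Transmitter is then taken back across plasma membranes by the neuronal glycine transporter GlyT2 (Slc6a5), the mainly glial GlyT1 (Slc6a9) and the astrocytic GABA transporter GAT-3 (Slc6a11). Whether an open GABA or glycine receptor hyperpolarizes a neuron depends on intracellular chloride, which NKCC1 (Slc12a2) raises and KCC2 (Slc12a5) lowers.

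Bulk RNA-seq was performed on a 5 mm piece of spinal cord from each of 16 female C57BL/6J mice. Of these, 14 received a lateral compression SCI at the T8-9 vertebral level with a 0.25 mm gap at 12 weeks of age. From 2 weeks after injury, 7 of them (SCI + Atorvastatin) were injected intraperitoneally every day for 4 weeks with atorvastatin at 10 mg/kg, an inhibitor of cholesterol synthesis, in a vehicle of DMSO, PEG 400, Tween 80 and saline, and the other 7 (SCI + Vehicle) with that vehicle alone. The 2 Uninjured Control mice had neither surgery nor injections, so injury, anesthesia and vehicle cannot be told apart in comparisons with them. Age cannot be told apart either. The labels give 12 weeks for the controls too. The study's text places the collection of the controls at a younger age than that of the SCI mice, which the labels do not state. Tissue was taken 6 weeks after injury.

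Libraries held 14823292 to 25579826 gene counts, and no gene of the 8 had fewer than 1124 counts in any mouse. The Uninjured Control samples stood apart from the SCI mice. They had counts for 12732 and 12356 gene symbols, against 16399 to 19338 in the SCI mice, and the 2 differed from each other by a chi-square per gene of 206.2, against 17.97 to 87.36 for pairs of mice within an SCI group. They also carried RNA of another tissue. Summed over 8 liver markers, TPM (a level scaled for gene length and library total) was 6231 in Uninjured Control replicate 1 and 1186 in replicate 2, against at most 11.4 in any SCI mouse. The defining neuronal markers were present in every mouse, and the 13 pan-neuronal markers summed to 12240 and 15060 TPM in the controls, 8251 to 12240 TPM in SCI + Vehicle and 7579 to 10520 TPM in SCI + Atorvastatin. In bulk tissue, fewer cells of a type and less RNA per cell cannot be told apart.

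Promoter sequences are shown for Slc32a1, Slc6a11 and Slc12a5, the genes of vesicle loading, astrocytic uptake and chloride extrusion with the lowest adjusted p-values in SCI + Atorvastatin against the controls. Each is the 250 bases before a transcription start, 5′ to 3′ on the gene's strand, from RefSeq (GRCm38.p6), at chr2:158610508-158610757 (plus strand) for Slc32a1, chr6:114130991-114131240 (plus strand) for Slc6a11 and chr2:164960596-164960845 (plus strand) for Slc12a5, the first of its listed starts. In this build Gad1, Gad2, Slc32a1 and Slc12a5 are all genes of chromosome 2, Slc6a9 lies on chromosome 4, Slc6a11 on chromosome 6 and Slc6a5 on chromosome 7. Capitals mark matches on either strand to GGGCGG (a GC box), the CCAAT box of the same letters, the TATA box motif TATAAA, the E-box motif CACGTG, or parts of the site of the neuronal repressor REST, spelled CAGCACC for its left part and GGACAG for its right part. No match overlapped one of another motif.
Slc32a1: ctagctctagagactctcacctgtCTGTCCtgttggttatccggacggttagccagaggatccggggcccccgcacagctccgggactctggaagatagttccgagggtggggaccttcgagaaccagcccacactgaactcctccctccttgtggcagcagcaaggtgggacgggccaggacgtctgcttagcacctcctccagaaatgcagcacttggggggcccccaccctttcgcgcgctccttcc
Slc6a11: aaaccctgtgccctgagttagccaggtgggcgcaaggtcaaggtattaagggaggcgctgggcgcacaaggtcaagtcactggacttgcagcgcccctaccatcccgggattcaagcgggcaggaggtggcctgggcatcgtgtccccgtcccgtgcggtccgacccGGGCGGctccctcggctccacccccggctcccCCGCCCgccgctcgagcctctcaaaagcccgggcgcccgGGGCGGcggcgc
Slc12a5: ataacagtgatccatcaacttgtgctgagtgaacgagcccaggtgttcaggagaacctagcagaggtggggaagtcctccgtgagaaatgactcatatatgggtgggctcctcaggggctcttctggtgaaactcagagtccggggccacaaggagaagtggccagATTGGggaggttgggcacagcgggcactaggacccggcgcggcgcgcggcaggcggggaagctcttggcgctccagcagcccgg
The Slc6a11 window held GC boxes, a motif present in 32.7% of all 32851 promoter windows of this length. The Slc12a5 window held a CCAAT match (33.8% of windows) and the Slc32a1 window a GGACAG match (18.7% of windows). The other motifs, TATAAA (12.4% of windows), the E-box (6.02%) and CAGCACC (5.73%), were not found in these 3 windows. The window of a later listed Slc12a5 start, not shown, held a GC box and an E-box and no CCAAT match. Across 11 starts of 7 genes, with Slc12a2 left out, GC content ranged from 43.6% to 71.2% with a median of 60.8%, against 52.4% over all windows. These are descriptions of sequence, and binding was not measured.

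The first question was how the injured cord treated with vehicle differed from uninjured cord. Of the 8 genes, 3 were downregulated in SCI + Vehicle, the vesicular transporter Slc32a1 and the uptake transporters Slc6a9 and Slc6a11, and 0 were upregulated (edgeR quasi-likelihood test, adjusted p under 0.05 and a change of more than 25%, a log2(fold change) beyond 0.322). Over all genes tested, 9.55% were called lower and 19.8% higher. With atorvastatin, 6 of the 8 were downregulated against the same controls and 0 upregulated, where 14% of all genes were called lower and 24.9% higher. The median log2(fold change) of the 8 was -0.53 with vehicle and -0.66 with atorvastatin, beside 0.17 and 0.21 over all genes tested. Over 10826 well-counted genes, those with at least 10 counts in every mouse as the 8 have, the median was -0.03 and -0.02. Both comparisons use the same 2 control mice and are not independent. With voom weights that give each group its own spread, 0 of the 8 passed with vehicle and 1, Slc32a1, with atorvastatin, where that fit called 0.715% and 0.789% of all genes lower.

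**Figure D1:**
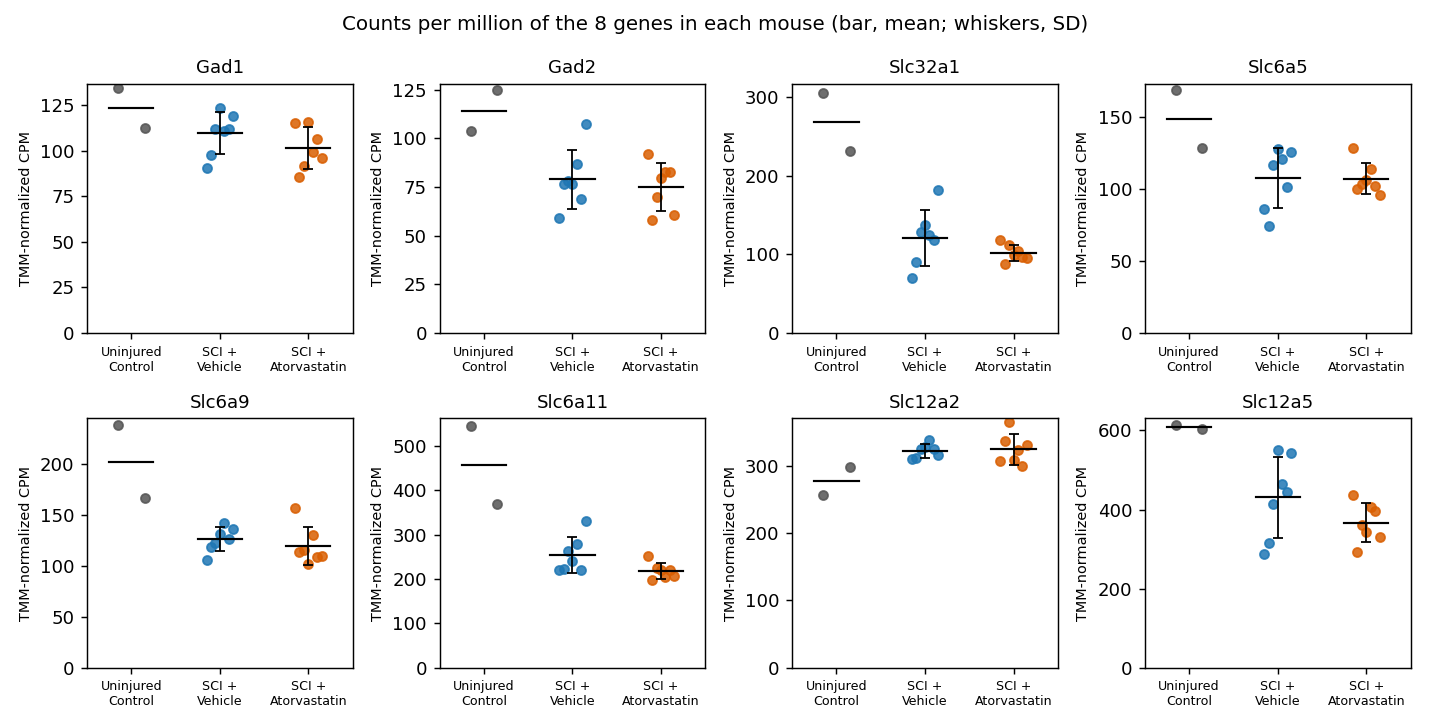
TMM-normalized CPM (y axis of each panel, from 0) of the 8 genes, with 1 point for each of the 2 Uninjured Control, 7 SCI + Vehicle and 7 SCI + Atorvastatin mice, bars for group means and whiskers for the SD of groups of 7. Slc32a1 runs from 69.4 to 181.8 CPM in SCI + Vehicle and from 231.2 to 305.6 CPM in the controls, while Slc12a2 is the gene whose SCI mice all lie above both controls.

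The enzymes of GABA synthesis differed in how far they moved. Gad1 stood at 112.7 and 134.4 CPM (counts scaled to library size, TMM-normalized) in the controls, at 90.7 to 123.6 with a median of 112.1 in SCI + Vehicle, and at 85.5 to 116.0 with a median of 99.4 in SCI + Atorvastatin. Both SCI groups overlapped the controls. Its log2(fold change) of -0.19 ± 0.14 (SE, adjusted p = 0.339) in SCI + Vehicle and -0.27 ± 0.13 (adjusted p = 0.136) in SCI + Atorvastatin did not pass the edgeR test, and the sign turned on the log2(TPM + 1) scale, to 0.22 and 0.074. Without Uninjured Control replicate 1 it was -0.054 and -0.14, and without replicate 2 it was -0.31 and -0.40, called lower with atorvastatin. The TPM scale placed the median of 10826 well-counted genes at 0.23 and 0.24, where TMM placed it at -0.03 and -0.02.

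Gad2 was at 103.8 and 124.8 CPM in the controls. In SCI + Vehicle it lay between 58.9 and 107.4 CPM (median 76.6), and 1 mouse reached into the control range. In SCI + Atorvastatin it lay between 58.3 and 91.8 CPM (median 79.5), below both controls. Gad2 was downregulated in SCI + Atorvastatin (log2(fold change) -0.60 ± 0.17, edgeR adjusted p = 0.0209), and the SCI + Vehicle value of -0.55 ± 0.19 missed the threshold (adjusted p = 0.0530). Without Uninjured Control replicate 2 the atorvastatin call was lost at -0.47. The vehicle value passed at -0.67 without control replicate 1 and at -0.64 without SCI + Vehicle replicate 7.

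Slc32a1, the shared vesicular carrier, had the largest fold change of the 8. The controls held 231.2 and 305.6 CPM, SCI + Vehicle mice 69.4 to 181.8 with a median of 124.4, and SCI + Atorvastatin mice 88.3 to 118.5 with a median of 99.2. No SCI mouse reached either control. The log2(fold change) was -1.16 ± 0.27 in SCI + Vehicle (edgeR adjusted p = 0.00880) and -1.39 ± 0.13 in SCI + Atorvastatin (adjusted p = 3.98e-05). Values were more spread in SCI + Vehicle (CV 29.4%) than in SCI + Atorvastatin (CV 10.1%), a difference in spread that was not tested.

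Among the uptake transporters, Slc6a5 (GlyT2) marks glycinergic neurons. It measured 128.4 and 168.2 CPM in the controls, 74.0 to 127.6 in SCI + Vehicle and 95.4 to 128.3 in SCI + Atorvastatin. All SCI mice lay below both controls on this scale, the nearest by less than 1 CPM. In TPM they did not, with 67.7 to 119.6 in SCI + Vehicle and 86.4 to 125.3 in SCI + Atorvastatin beside 111.9 and 118.0 in the controls. The log2(fold change) of -0.46 ± 0.13 passed in SCI + Atorvastatin (edgeR adjusted p = 0.0199), and -0.48 ± 0.21 did not in SCI + Vehicle (adjusted p = 0.106). Without Uninjured Control replicate 1 the atorvastatin call was lost at -0.25 and the vehicle value was -0.27, and without replicate 2 the vehicle value passed at -0.66.

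Slc6a9 (GlyT1) measured 166.0 and 237.7 CPM in the controls, 106.0 to 141.7 in SCI + Vehicle and 101.5 to 157.1 in SCI + Atorvastatin, without overlap on this scale. It was downregulated in both groups, by a log2(fold change) of -0.69 ± 0.15 (edgeR adjusted p = 0.00538) and -0.75 ± 0.17 (adjusted p = 0.00610). The control with the higher Slc6a9 level was replicate 1, which also had the higher liver marker level. Without it the change was -0.41 in SCI + Vehicle, where the call was lost, and -0.47 in SCI + Atorvastatin, where it was kept.

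Slc6a11 (GAT-3) fell further. Controls held 369.8 and 544.6 CPM, SCI + Vehicle mice 220.4 to 329.9 with a median of 240.6, and SCI + Atorvastatin mice 198.7 to 252.4 with a median of 219.8. The groups did not overlap, and the log2(fold change) was -0.86 ± 0.18 (edgeR adjusted p = 0.00460) and -1.06 ± 0.13 (adjusted p = 0.000207). Without Uninjured Control replicate 1 it was -0.55 and -0.75, still called in both. The summed level of 10 astrocyte markers moved the other way. It was 3328 and 4291 TPM in the controls, 8121 to 10360 TPM in SCI + Vehicle and 9073 to 10410 TPM in SCI + Atorvastatin. Gfap made up much of that sum, with 1340 and 2085 TPM in the controls, 5840 to 7155 in SCI + Vehicle and 6541 to 7647 in SCI + Atorvastatin. The median log2(fold change) of the 10 was 0.17 and 0.25, and 5 and 4 of them were below 0. In each comparison 5 of the 10 were called higher and 1 lower. Over all genes, 19.8% and 24.9% were called higher and 9.55% and 14% lower.

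The chloride cotransporters lay on opposite sides of the controls. Slc12a5 (KCC2), the neuronal extruder, measured 604.3 and 613.9 CPM in the controls, 286.5 to 551.2 in SCI + Vehicle (median 444.5) and 293.6 to 435.8 in SCI + Atorvastatin (median 361.3). All SCI mice lay below both controls. The log2(fold change) passed in SCI + Atorvastatin (-0.72 ± 0.13, edgeR adjusted p = 0.00177) but not in SCI + Vehicle (-0.51 ± 0.22, adjusted p = 0.110).

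Slc12a2 (NKCC1), the importer, which glia also express, measured 256.3 and 297.9 CPM in the controls, 310.4 to 337.8 in SCI + Vehicle and 298.7 to 364.6 in SCI + Atorvastatin. It was the member with every SCI mouse above both controls in both groups, a pattern that 24.8% of all genes showed in SCI + Vehicle and 29.8% in SCI + Atorvastatin. The nearest mouse was less than 1 CPM above the higher control. Its log2(fold change) of 0.20 ± 0.10 (edgeR adjusted p = 0.137) and 0.23 ± 0.10 (adjusted p = 0.0808) did not pass, while limma on log2(TPM + 1) called it higher in both. Without Uninjured Control replicate 1 the values were 0.098 and 0.13, and without replicate 2 they were 0.31 and 0.34, called higher with atorvastatin. Every SCI mouse lay below both controls for 5 of the 8 genes in SCI + Vehicle, against 10.7% of all genes, and for 6 of the 8 in SCI + Atorvastatin, against 14.2%. These counts are for TMM-normalized CPM. In TPM, a scale added after the values were seen, they were 2 of 8 with vehicle (Slc32a1 and Slc6a11), against 6.67% of all genes, and 3 of 8 with atorvastatin (Slc12a5 in addition), against 8.91%. Slc12a2 lay above both controls in TPM too, as did 26.3% and 32.3% of all genes.

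**Figure D2:**
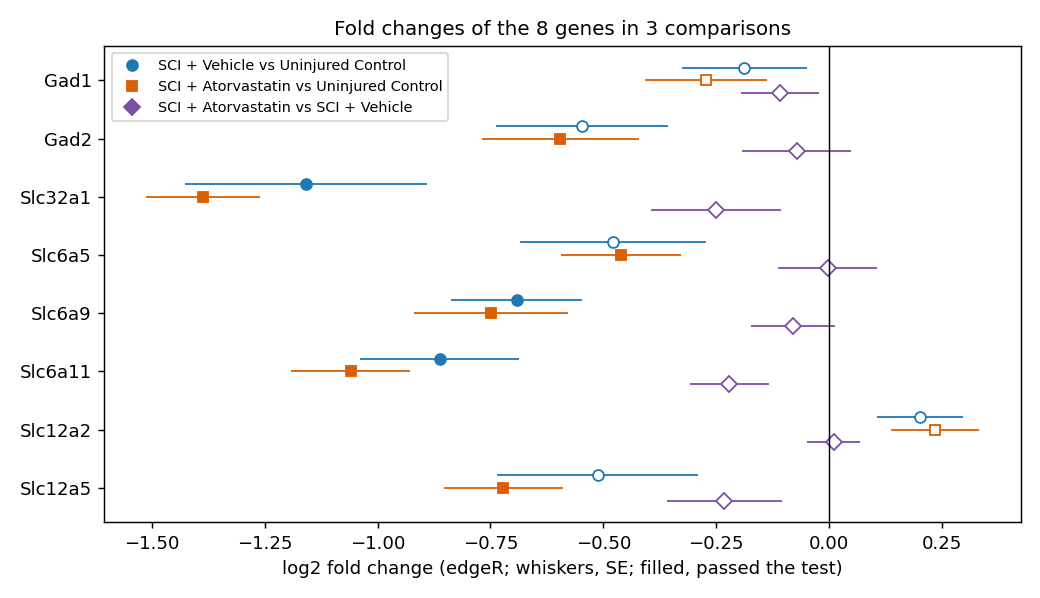
log2(fold change) of each gene (x axis, edgeR with TMM; y axis, genes) in 3 comparisons, with whiskers for the SE and filled symbols where the test was passed. The change of Slc32a1 against the controls is the largest, at -1.16 and -1.39, and no symbol of the treatment comparison is filled.

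The second question was whether atorvastatin changed these genes in the injured cord. None of the 8 was called between SCI + Atorvastatin and SCI + Vehicle at an unadjusted p under 0.001 (0.106% of all genes were), and 1 of the 8 had an unadjusted p under 0.05. By edgeR, 0 of 16091 genes had an adjusted p under 0.05 and 1132 an unadjusted p under 0.05, and DESeq2 also called 0 of the 8. Slc6a11 was the gene with that p, at a log2(fold change) of -0.22 ± 0.09 (edgeR adjusted p = 0.680). Slc12a5 was at -0.23 ± 0.13 (edgeR adjusted p = 0.742) and Slc32a1 at -0.25 ± 0.14 (adjusted p = 0.749). The other 5 were between -0.11 and 0.01, with SEs of 0.059 to 0.12. The median over the 8 was -0.09, beside -0.0014 over all genes. Passing against the controls in one SCI group and not in the other is therefore no difference between treatments, and these data do not show that the treatments act alike.

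Levels per gene length allow the genes to be set side by side. In the controls the order by mean TPM was Slc6a11 (236.4), Slc32a1 (226.0), Slc12a5 (217.2), Slc6a9 (123.3), Slc6a5 (115.0), Slc12a2 (77.7), Gad1 (73.8) and Gad2 (46.9). In SCI + Vehicle it was Slc12a5 (177.5 ± 42.0, SD), Slc6a11 (156.7 ± 23.8), Slc32a1 (120.0 ± 34.1), Slc12a2 (108.8 ± 8.88), Slc6a5 (99.6 ± 20.01), Slc6a9 (90.3 ± 10.97), Gad1 (86.3 ± 10.1) and Gad2 (34.0 ± 6.24). In SCI + Atorvastatin it was Slc12a5 (151.4 ± 24.2), Slc6a11 (136.5 ± 17.3), Slc12a2 (111.9 ± 7.18), Slc32a1 (100.7 ± 12.6), Slc6a5 (98.3 ± 12.8), Slc6a9 (87.2 ± 14.75), Gad1 (78.2 ± 12.2) and Gad2 (33.8 ± 6.48). In the SCI groups neighbours in this order overlapped from mouse to mouse down to Gad1. Gad2 was lowest in all 3 groups and did not overlap Gad1.

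Ratios within a mouse do not depend on scaling between libraries. The KCC2 to NKCC1 ratio (Slc12a5 to Slc12a2, TPM) was 2.56 and 3.15 in the controls, 1.13 to 2.21 in SCI + Vehicle and 1.06 to 1.74 in SCI + Atorvastatin, with no overlap between controls and SCI mice. The mean log2 ratio differed from the controls by -0.83 with vehicle and -1.08 with atorvastatin, each with an exact permutation p of 0.0556, the smallest that 7 against 2 mice can give, and 0.111 adjusted over 4 ratios. Between the SCI groups the difference was -0.25 (exact permutation p = 0.167, adjusted p = 0.334).

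Slc32a1 was also compared with Slc17a6, the vesicular glutamate transporter VGLUT2 of excitatory interneurons. The TPM ratio was 2.20 and 2.98 in the controls, 0.964 to 1.96 in SCI + Vehicle and 1.23 to 1.95 in SCI + Atorvastatin. The log2 ratio differed by -0.72 and -0.77 (exact permutation p = 0.0556, adjusted p = 0.111 in each), and by -0.05 between the SCI groups (exact permutation p = 0.759). Slc17a6 itself was downregulated, by -0.52 ± 0.18 (edgeR adjusted p = 0.0495) and -0.64 ± 0.14 (adjusted p = 0.00507).

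The Gad1 to Gad2 ratio was 1.21 and 2.09 in the controls, 2.05 to 2.97 in SCI + Vehicle and 2.08 to 2.84 in SCI + Atorvastatin. The lowest SCI mice lay just below the higher control, and the log2 differences of 0.69 and 0.55 had an exact permutation p of 0.111. These values moved with the control left out, to 1.083 and 0.94 without replicate 1 and to 0.29 and 0.15 without replicate 2. The Slc6a5 to Slc6a9 ratio differed by 0.21 (exact permutation p = 0.389) and 0.27 (exact permutation p = 0.167), and all groups overlapped. It was -0.0074 and 0.048 without control replicate 1 and 0.43 and 0.49 without replicate 2.

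**Figure D3:**
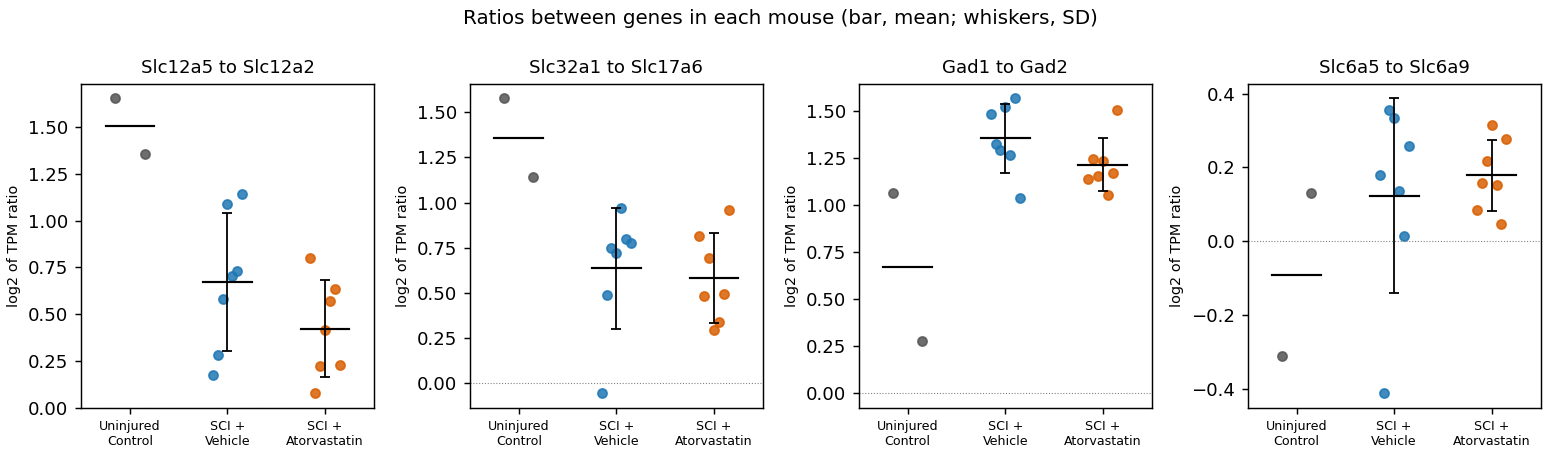
log2 of the TPM ratio of 2 genes (y axis) in each Uninjured Control, SCI + Vehicle and SCI + Atorvastatin mouse, with bars for means and whiskers for the SD of groups of 7. For Slc12a5 to Slc12a2 the means are 1.504, 0.67 and 0.42, and both controls lie above every SCI mouse. The ratios are of bulk tissue and not of neurons alone.

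Because the neuronal markers were lower in SCI mice, each gene was also set against their summed TPM in the same mouse. Nefl, Nefm and Snap25 were the largest parts of that sum, with control means of 4413, 3137 and 2495 TPM. Of the 13 markers, 7 were called lower in SCI + Vehicle (9.55% of all genes were) and 11 in SCI + Atorvastatin (14% of all genes), with 0 higher. Relative to them, the log2 difference of Slc32a1 from the controls was -0.47 with vehicle (exact permutation p = 0.111) and -0.53 with atorvastatin (exact permutation p = 0.0556). Slc12a2 was at 1.01 and 1.19 and Gad1 at 0.72 and 0.71 (exact permutation p = 0.0556 for each). Slc6a5 was at 0.26 (exact permutation p = 0.222) and 0.40 (exact permutation p = 0.0556), and Slc12a5 at 0.17 and 0.11. Nearer 0 with vehicle were Slc6a9, at 0.05 and 0.13, Gad2, at 0.03 and 0.17, and Slc6a11, at -0.10 and -0.15. No adjusted p over the 8 genes was below 0.111, and with 2 controls none could be below 0.05 before adjustment. Between the SCI groups the 8 differences ran from -0.07 to 0.18, and the lowest exact permutation p was 0.125.

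**Figure D4:**
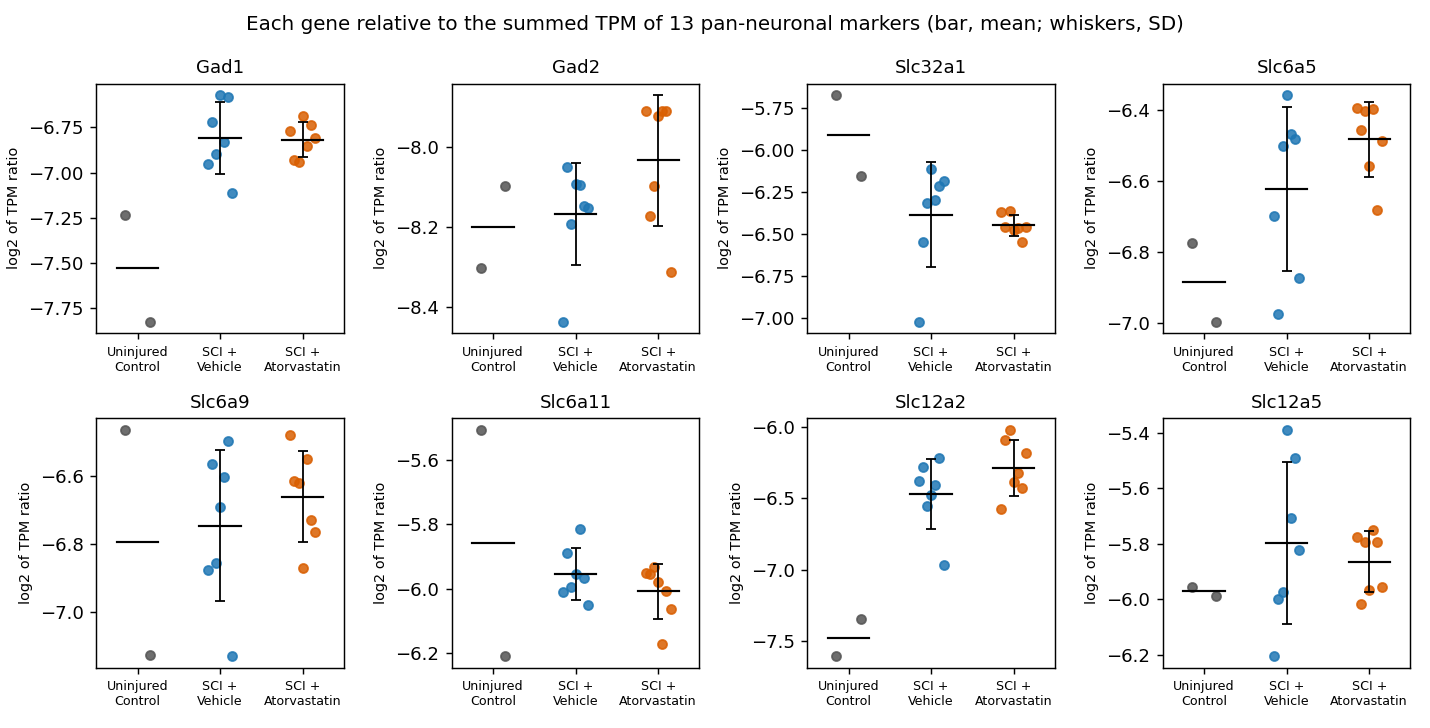
log2 of the TPM of each gene over the summed TPM of 13 pan-neuronal markers (y axis) in each mouse, by group, with bars for means and whiskers for the SD of groups of 7. Slc12a2 lies higher in every SCI mouse than in both controls, and the controls of Slc6a11 lie at the 2 ends of the range, at -6.21 and -5.51.

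Over the 14 SCI mice, with each group centred on its mean, most of the 8 genes varied together from mouse to mouse. Of 28 pairs, 18 had a Pearson r with a Benjamini-Hochberg adjusted permutation p under 0.05 and 17 a Spearman rho. The share of all gene pairs that would pass was not computed, so this count is not shown to be particular to the 8 genes. The median r was 0.66. The highest was between Slc32a1 and Slc12a5 (r = 0.893, permutation p = 0.00018, adjusted p = 0.00336; rho = 0.859, permutation p = 0.00068), and it was 0.861 without the 2 mice farthest from the median of Slc32a1. Slc12a2 passed with none of the other 7, with r from -0.35 to 0.19. Within SCI + Vehicle its r with the other 7 ran from 0.26 to 0.74, and within SCI + Atorvastatin from -0.78 to 0.045, with 7 mice each and the difference not tested. When each gene was instead taken relative to the mean log2 level of the 13 pan-neuronal markers, a choice made after the values were seen, 0 of 28 pairs passed by Pearson's r and the median r was 0.17. Slc32a1 and Slc12a5 then had r = 0.699 (permutation p = 0.0244, before adjustment). That measure is in TPM, and the change of unit alone, to log2(TPM + 1) with no markers, gave 21 of 28 pairs.

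**Figure D5:**
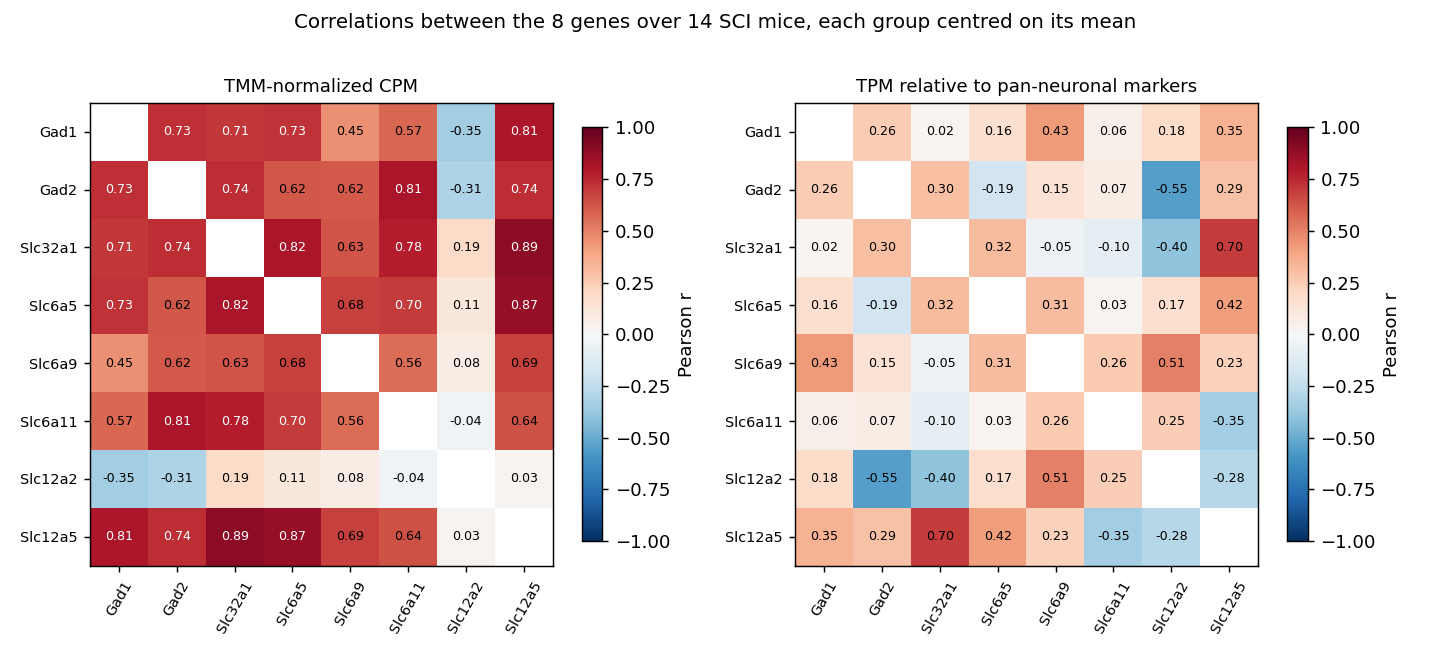
Pearson r (colour and printed value) for each pair of the 8 genes over 14 SCI mice, centred by group, for TMM-normalized CPM at left and for TPM relative to pan-neuronal markers at right. At left the pairs without Slc12a2 are all positive and Slc32a1 with Slc12a5 is highest at 0.89, and at right the median is 0.17.

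The genes with the pattern most like each member over these 14 mice were named among 12565 genes with a mean of at least 5 CPM, by the highest r. For Slc32a1 they were Rasl10b (0.976), Ncdn (0.969) and Sncb (0.969). For Slc12a5 they were Dnm1 (0.967), Nptx1 (0.964) and Atp2b2 (0.960), and for Slc6a11 Kif5c (0.950), Rab6b (0.943) and Rab11fip4 (0.922). For Gad1 they were Arhgef11, B3gat1 and Sgsm1 (0.925 to 0.939), for Gad2 Ankrd39, Chst10 and Cntnap1 (0.902 to 0.933), and for Slc6a5 Lonrf2, Atp2a2 and Rtn1 (0.919 to 0.939). Likeness was weaker for Slc6a9 (Wbscr17, Mapk8ip2 and Kif2a, 0.853 to 0.888) and Slc12a2 (Ehd1, Ubac2 and Pmaip1, 0.840 to 0.853).

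For this list and each list below, the shares over all genes tested were 9.55% called lower and 19.8% higher in SCI + Vehicle. In SCI + Atorvastatin they were 14% and 24.9%. Lists of so few genes were not tested against these shares. Of 6 genes of GABA uptake and breakdown, 2 were called lower and 1 higher in SCI + Vehicle, and 3 lower and 1 higher in SCI + Atorvastatin. Aldh5a1, which oxidizes succinic semialdehyde, fell by 0.63 ± 0.15 (edgeR adjusted p = 0.00956) and 0.68 ± 0.14 (adjusted p = 0.00315) on the log2 scale. Abat, the GABA transaminase, passed in SCI + Atorvastatin (-0.39 ± 0.10, adjusted p = 0.0134). Slc6a12, a betaine and GABA transporter, had 0 counts in both controls, 8 to 146 counts in SCI + Vehicle and 32 to 148 in SCI + Atorvastatin. The group medians were 2.57 and 4.85 CPM. They were 17.3-fold and 32.7-fold higher than the 0.148 CPM that 3 counts in a control library would give. These folds are not lower bounds, because a control could read 0 for a gene that the other control expressed. Slc12a7, for example, had 0 and 683 counts in the 2 controls.

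Of 6 genes of glycine cleavage and synthesis, 3 were called lower in each comparison and 0 higher. In SCI + Vehicle 5 of the 6 were below 0. Gldc was at 1.41 ± 0.82 and was not called, with 23 and 70 counts in the controls. Gcsh and Amt encode parts of the glycine cleavage system, and Shmt2 interconverts serine and glycine. Amt changed by -1.39 ± 0.21 (edgeR adjusted p = 0.000857) and -1.18 ± 0.18 (adjusted p = 0.000576), Gcsh by -0.95 ± 0.16 and -1.12 ± 0.12, and Shmt2 by -1.13 ± 0.21 and -1.002 ± 0.21. Liver expresses this pathway strongly, the liver markers were 1186 and 6231 TPM in the controls, and their part in these values was not tested.

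Of 17 tested GABA and glycine receptor subunits out of 19, 2 were called lower and 1 higher in SCI + Vehicle, and 6 lower and 1 higher in SCI + Atorvastatin. Gabra3 was lower in both (-0.68 ± 0.16, edgeR adjusted p = 0.00920, and -0.87 ± 0.16, adjusted p = 0.00219). Gabbr2, of the metabotropic GABA receptor, passed in SCI + Atorvastatin (-0.84 ± 0.15, adjusted p = 0.00168). Gabrb1 rose by 1.40 ± 0.24 (adjusted p = 0.0020) and 1.36 ± 0.22 (adjusted p = 0.000824). Of 7 genes of the inhibitory postsynaptic scaffold, 2 were lower, Iqsec3 and the adhesion protein gene Nlgn2, and 2 higher, Shisa7 and Slitrk3, in each comparison. Nlgn2 was at -0.60 ± 0.20 (adjusted p = 0.0479) and -0.73 ± 0.14 (adjusted p = 0.00196).

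Of 12 other chloride carriers and channels, 2 were called higher (Clcn7 and Slc4a10) and 1 lower (Clcn6) in each comparison. Clcn6, an endosomal chloride-proton exchanger, was at -0.91 ± 0.14 (edgeR adjusted p = 0.00104) and -1.03 ± 0.11 (adjusted p = 9.1e-05). Of 14 regulators of chloride cotransport, 2 were lower and 1 higher in each. Stk39 encodes SPAK, the kinase that phosphorylates NKCC1 and KCC2, and Wnk2 a kinase upstream of it. Stk39 changed by -0.82 ± 0.15 (adjusted p = 0.00305) and -0.80 ± 0.10 (adjusted p = 0.000201), and Wnk2 by -0.74 ± 0.20 (adjusted p = 0.0174) and -0.85 ± 0.17 (adjusted p = 0.00339). Neto2, a KCC2 partner, rose by 1.12 ± 0.21 (adjusted p = 0.00321) and 1.09 ± 0.22 (adjusted p = 0.00352).

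Of the 3 vesicular glutamate transporters, Slc17a6 was called lower and Slc17a8 higher. Slc17a8 had 0 counts in both controls and 13 to 106 in SCI + Vehicle. The group median of 1.74 CPM was 11.7-fold higher than the same 0.148 CPM, which again is not a lower bound. Between SCI + Atorvastatin and SCI + Vehicle, 0 genes of these pathway lists were called. Of 12 markers of inhibitory interneurons, 2 were called lower and 2 higher in SCI + Vehicle and 3 lower and 1 higher in SCI + Atorvastatin. Over all genes, 9.55% were called lower and 19.8% higher with vehicle, and 14% and 24.9% with atorvastatin. Between the SCI groups 1 of the 12, Lhx1, was called lower, where 0.106% of all genes were called in either direction. All 12 were below 0 there, with a median log2(fold change) of -0.42, and 4 had an unadjusted edgeR p under 0.05. The 13 pan-neuronal markers were all below 0 too, with a median of -0.15. The 2 called higher in SCI + Vehicle were Lhx1, with 0 counts in both controls, and Gbx1, with 0 and 9.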

How the data were processed

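RNA of 16 spinal cords (7, 7 and 2 mice) was sequenced from strand-marking total RNA libraries as 150-base paired-end reads. The submitters' processing notes name FastQC 0.12.1, Trimmomatic 0.38, STAR 2.5.4b, RSEM 1.3.1 and mm10. A count table in whole numbers and a TPM table were deposited, both by gene symbol, and the step that made the counts whole is not given in the sources used here. A gene was tested where any group's mean TPM exceeded 1 (16091 of 24411).

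Counts were fitted with edgeR 4.0.16 (R 4.3.3, TMM, quasi-likelihood test, Benjamini-Hochberg adjustment over all genes) on the 2 groups compared, with DESeq2 1.42.0 and limma 3.58.1 as alternatives. Ratios of TPM were tested with two-sided exact permutation tests over mice, and correlations with 100000 permutations within groups (scipy 1.17.1). The fit was tested on simulated data, where fold changes came back unbiased but few of the smaller changes were recovered against 2 controls. Simulated controls had the same spread as the SCI mice and, apart from the changed genes, the same mean levels. Bias and false calls with controls that differ as these 2 did were therefore not tested. A first limit on that recovery was not met and was replaced, after it was seen, by limits on bias, on false calls and on recovery between the SCI groups, so a gene that did not pass against the controls is not shown to be unchanged. Replicate numbers did not pair the mice. Genes outside the 8 were named as those called in at least 1 comparison, at most 4 with the smallest p for each list, and the 3 genes most like each member, and some genes that this rule named are not reported here. The 8 members and the lists were chosen with earlier results of these data known. The labels give no batch, and depth was 14823292 to 25579826 counts per mouse.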

Additional observations from a re-analysis of the deposited data

Results flagged for a closer look

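In SCI + Atorvastatin, replicate 7 stood apart in the log2 TPM ratio of Gad1 to Gad2, at 1.507, where the next mouse was at 1.243 and the far end of the group at 1.056. The gap was 0.586 of the group's range, above Dixon's 95% critical value for 7 mice. Chance flags about 1 in 20 groups, and 1 of 24 groups tested was flagged here.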

How the results depend on the processing

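The 3 genes called in SCI + Vehicle against the controls became 5 with DESeq2 (12.1% of all genes called lower) and 6 with all 3 groups in 1 fit (13.8%), and 0 with voom group weights (0.715%). The 6 called in SCI + Atorvastatin became 1 (Slc32a1) with voom (0.789%). Leaving out 1 SCI mouse gave 3 to 4 calls with vehicle, where Gad2 was added without replicate 7, and the same 6 with atorvastatin. All were lower. The share of all genes called in these fits is not given here. Leaving out 1 control leaves a group of 1 mouse, and the genes called then changed. Without control replicate 1, Slc6a9 was at -0.41 with vehicle. Without control replicate 2, Slc12a2 was at 0.34 and Gad2 at -0.47 with atorvastatin. The replicate block gave 0 calls in each comparison with the controls, where it called 16 and 0 of all genes, and 0 between the SCI groups. Mice with the same number correlated from -0.245 to 0.168, and 0 of 7 numbers had their mice correlate best with each other. Gad1 turned positive on the TPM scales, to 0.2201 and 0.07406 with a pseudocount of 1 and to 0.2226 and 0.07485 with 0.1. In TPM relative to the neuronal markers, 0 of 28 pairs of genes passed, against 18 in TMM-normalized CPM and 21 on log2(TPM + 1). The cause was not tested.

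Other signs turned near 0. Between the SCI groups, Slc6a5 was at 0.008851 with the strict filter, 0.02747 with voom and 0.015 with the replicate block. Leaving out 1 mouse moved Slc6a5 between -0.07596 and 0.04261, Gad2 between -0.1321 and 0.01613, and Slc12a2 between -0.02031 and 0.02882. It moved Slc6a5 to Slc6a9 between -0.03408 and 0.09337 (SCI groups) and -0.00739 and 0.4345 (SCI + Vehicle against controls), and Slc32a1 to Slc17a6 between -0.167 and 0.004011 (SCI groups). Relative to neuronal markers it moved Gad1 (-0.05815 to 0.03245) and Slc12a5 (-0.1343 to 0.001849) between the SCI groups, Gad2 (-0.06864 to 0.1352), Slc6a9 (-0.283 to 0.3819) and Slc6a11 (-0.4474 to 0.2556) in SCI + Vehicle, and Slc6a9 (-0.198 to 0.467) and Slc6a11 (-0.5014 to 0.2015) in SCI + Atorvastatin. With CPM in place of TPM, Slc6a9 was at -0.006049 in SCI + Vehicle and Gad1 at 0.03866 between the SCI groups. With each marker given the same weight, chosen after seeing the data, Gad2 was at -0.1253 and Slc6a9 at -0.1092 in SCI + Vehicle, Slc6a9 at -0.01444 and Slc12a5 at -0.04173 in SCI + Atorvastatin, and Gad1 at 0.002324 between the SCI groups.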
